A study of Homo sapiens with 17 samples.

Results

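Listed pause sites on the plus strand of the mitochondrial chromosome were examined in HEK293 cells, an established line from human embryonic kidney. The members are all rows of 4 deposited tables that lie on that chromosome and strand: 584 of 48566 rows and 577 of 47713 rows with sarkosyl, and 427 of 66089 rows and 368 of 41769 rows in its absence. They fall on 1060 different positions. The assay, TV-PRO-seq, lets polymerases that are already on DNA in permeabilised cells extend their RNA with labelled nucleotides during run-ons of several lengths. The RNA 3′ ends mark where the polymerases stood. Run-on lasted 0.5, 2, 8 or 32 min in a buffer with sarkosyl, a detergent that strips many proteins from nucleic acids, or in a buffer free of it. The labels name no other treatment for these 16 libraries, and each buffer has 2 replicates that the series text calls biological duplicates. Each table, called a series here, is 1 buffer and 1 replicate, with 1 pausing time per site fitted over the run-on times. The libraries of the 2 buffers carry separate runs of sample numbers, and the labels name no batch. A difference between buffers therefore cannot be told apart from a difference between batches. An additional library, labelled Trp treatment, was not analysed here. Pausing time is given as deposited, since its unit is not given in the sources used here. The tables hold no read numbers, so the depth behind a site is unknown, and they hold no expression levels against which markers of the cell line could be checked.

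Human mitochondrial DNA is a circle with a control region that holds the main promoters and no gene. A single-subunit polymerase, POLRMT, copies each strand into long precursors. On the plus strand most genes for rRNA and protein are flanked by tRNA genes, and the tRNAs are cut out of the precursor at both ends, which frees the RNAs on either side. The plus strand carries 28 of the annotated genes, namely 2 rRNA, 14 tRNA and 12 protein-coding genes, in GENCODE release 29 on GRCh38. The first of them, MT-TF, starts at position 577 and the last gene on either strand ends at position 16023.

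The sequences that carry the main pattern are 3′ ends of plus-strand tRNA genes on GRCh38 at which the sarkosyl-free series listed times of 10 or more, read 5′ to 3′ on the plus strand from the GENCODE 29 transcripts. The capital marks the listed site, which is the last base of the gene for each one except MT-TD, where it is 1 base before the last. For MT-TW and MT-TK the window stops at the gene's end.
MT-TF, chrM:628-657: ctcacatcaccccataaacAaataggtttg
MT-TW, chrM:5560-5579: gttgcaatacttaatttctG
MT-TD, chrM:7565-7594: ggctaaatcctatatatctTaatggcacat
MT-TK, chrM:8345-8364: ccaacacctctttacagtgA
MT-TH, chrM:12187-12216: cttacgaccccttatttacCgagaaagctc
MT-TL2, chrM:12317-12346: tgcaactccaaataaaagtAataaccatgc

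A second set shows 9 sites from those that ranked longest and shortest among the 92 positions listed in all 4 series, by the mean of their within-series percentile ranks. The site is again the capital, 15 bases from each end of the window. The first 5 ranked longest and the last 4 are among the shortest.
MT-CYB, chrM:14913-14943: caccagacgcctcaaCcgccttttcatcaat
MT-CO2, chrM:7933-7963: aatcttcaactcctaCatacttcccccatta
MT-RNR1, chrM:1259-1289: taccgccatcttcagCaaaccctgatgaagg
MT-ND5, chrM:13107-13137: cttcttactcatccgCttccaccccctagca
MT-CO1, chrM:6154-6184: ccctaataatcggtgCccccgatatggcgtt
MT-ND2, chrM:4601-4631: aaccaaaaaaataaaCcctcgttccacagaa
MT-ND1, chrM:3762-3792: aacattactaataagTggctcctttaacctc
MT-CYB, chrM:15175-15205: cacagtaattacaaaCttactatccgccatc
MT-ND1, chrM:3742-3772: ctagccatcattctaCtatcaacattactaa

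The level of plus-strand pausing times was alike in the sarkosyl series and far apart in the sarkosyl-free series. The medians were 1.30 and 1.14 in sarkosyl replicates 1 and 2. They were 2.45 and 0.325 in sarkosyl-free replicates 1 and 2, so the sarkosyl values lie between those of the other buffer. The difference of the buffers' mean log2 medians, sarkosyl minus sarkosyl free, was 0.45, with p = 1 in a two-sided exact permutation test of 2 series against 2, whose smallest possible p is 0.33. Without sarkosyl-free replicate 2 that difference was -1.01, so its sign rests on that series. The spread also differed. Between the quartiles the log2 pausing times spanned 0.86 and 0.35 in the sarkosyl series, but 1.87 and 1.84 in the sarkosyl-free series. Times above 10 occurred at 4 and 0 sites with sarkosyl (0.68% and 0%), and at 46 and 35 sites in its absence (10.8% and 9.51%). The share of autosomal sites above 10 was higher in each series, at 8.48% and 1.81% with sarkosyl and 14.2% and 44.2% in its absence. For mitochondrial minus-strand sites it was 0.20% and 0% with sarkosyl, and 8.83% and 14.6% in its absence.

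Autosomal sites of the same tables had medians of 1.51 and 1.36 with sarkosyl, and of 2.21 and 8.20 in its absence. Plus-strand mitochondrial sites were below them in 3 of 4 series, with log2 differences of -0.22, -0.25 and -4.66, and above them by 0.15 in sarkosyl-free replicate 1. The mean of the 4 differences was -1.24, with p = 0.25 in a two-sided exact sign-flip permutation test. Without sarkosyl-free replicate 2 the mean was -0.11. That test cannot go below 0.13 over 4 series, and no comparison of this kind can reach the threshold. It was used for 6 comparisons and the permutation of 2 against 2 for 1, and adjusted over these 7 by Benjamini-Hochberg the exact p-values run from 0.875 to 1.

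Minus-strand mitochondrial sites had median pausing times of 0.871, 1.06, 1.96 and 0.470 in the same order of series, from 490, 493, 317 and 287 sites. The plus strand was above the minus strand by 0.58, 0.10 and 0.32 on the log2 scale in the first 3 series. It was below by -0.53 in sarkosyl-free replicate 2. The mean was 0.12, with an exact sign-flip p of 0.625. Without sarkosyl replicate 1 the mean was -0.03.

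Along the plus strand, the median pausing time did not follow the distance from the control region in 1 direction. The arc of 15.4 kb between the first and the last gene was divided at its midpoint. With sarkosyl the far part was longer, with medians of 1.19 near and 1.39 far in replicate 1, and 1.12 near and 1.17 far in replicate 2. Without sarkosyl the medians were 2.53 near and 2.48 far in replicate 1, and 0.370 near and 0.279 far in replicate 2. In sarkosyl-free replicate 1 the log2 difference of -0.03 turned to 0.26 over sites listed in both series of the buffer. It was -0.09 without sites within 5 bp of a gene boundary, so its sign depended on the choice of sites. The mean log2 difference was -0.04, with an exact sign-flip p of 0.875, and without sarkosyl-free replicate 2 it was 0.09. As a description across sites that share a table, Spearman's rho of pausing time with distance was 0.177 and 0.149 over 566 and 564 sites with sarkosyl. It was 0.028 and -0.141 over 417 and 362 sites in its absence. The near part holds both rRNA genes, so distance and gene class cannot be told apart over all sites. Within the mRNA genes alone rho was 0.026 and 0.157 with sarkosyl, and 0.011 and -0.014 in its absence.

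In bins of 2 kb the departures were small in most series. The bin from 2 to 4 kb, which holds the end of MT-RNR2, all of MT-ND1 and the start of MT-ND2, had the lowest median of sarkosyl replicate 1, 0.967, and the lowest of sarkosyl replicate 2, 1.08. It also had the lowest median of sarkosyl-free replicate 1, 2.07. In sarkosyl-free replicate 2 the first bin, with 0.481, and the last bin, with 0.749, stood above the bins between them, which ran from 0.225 to 0.313.

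**Figure D1:**
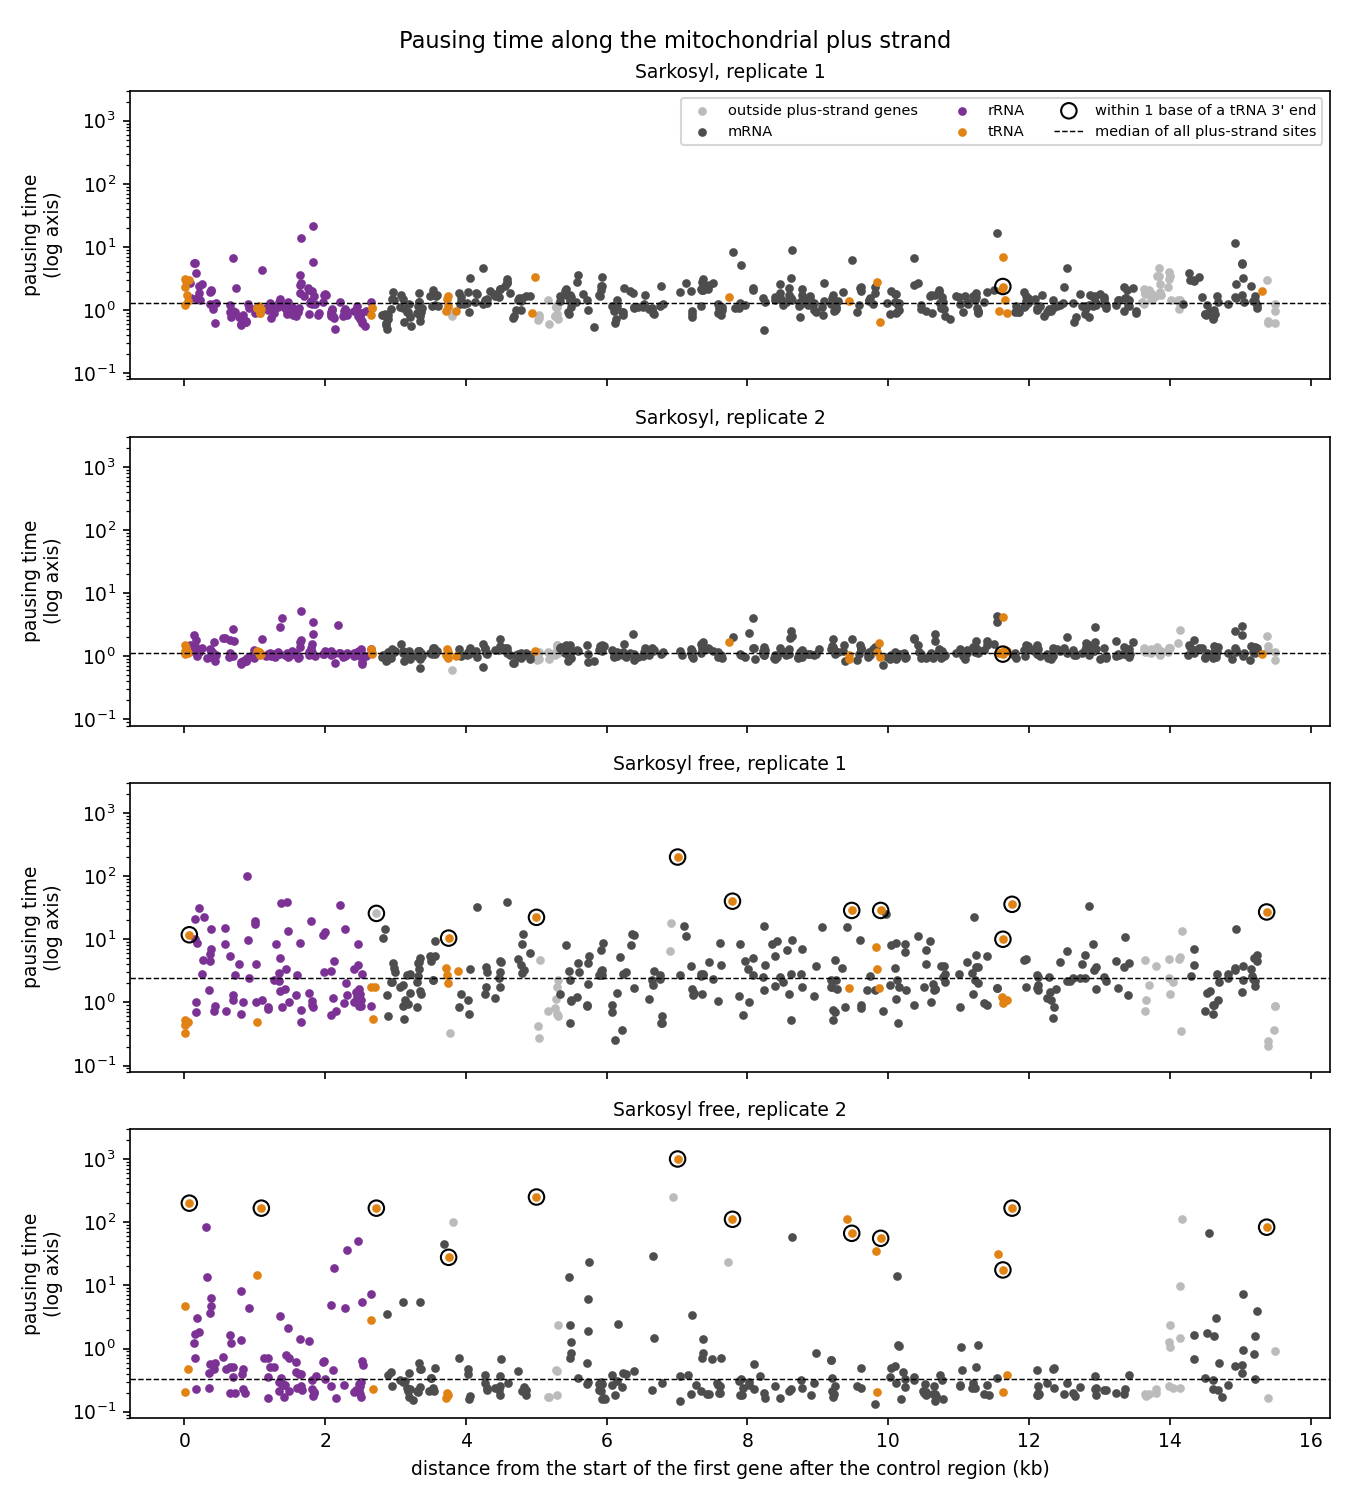
Each point is a listed plus-strand site, placed by its distance in kb from the start of the first gene and by its pausing time on a log axis, with 1 panel per series. Sites before the first gene and most of those past the last gene are not drawn. Colours give the gene class, the dashed line is the series median, and open circles mark sites within 1 base of a tRNA 3′ end, which are 1 site in each sarkosyl series and 11 and 12 sites, at 10 or above, in the sarkosyl-free series.

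The rRNA genes held more listed sites per base than the protein-coding genes in all 4 series. MT-RNR1 and MT-RNR2 encode the small and large rRNA of the mitochondrial ribosome. Together they held 4.62 and 4.46 sites per 100 bp with sarkosyl, against 3.44 and 3.50 in the mRNA genes. Without sarkosyl they held 3.38 and 3.58 per 100 bp, against 2.53 and 2.04. The log2 ratio was 0.42, 0.35, 0.42 and 0.81, with a mean of 0.50, and was above 0 in 4 of 4 series. Its exact sign-flip p of 0.13 is the smallest that 4 series can give. The tRNA genes also held more sites per base than the mRNA genes in all 4 series. They had 3.66 and 3.56 per 100 bp with sarkosyl, and 3.03 and 2.82 in its absence. In sarkosyl replicate 2 the margin over the mRNA genes was small. Without sarkosyl, only 19 of 29 and 15 of 27 tRNA-gene sites lay farther than 1 base from a tRNA 3′ end. The higher tRNA density there thus includes the sites at these ends. No 2 sites of a table were closer than 4 bases, which caps how dense a listing can be, and the rule by which sites were listed is not given in the sources used here.

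Pausing times in the rRNA genes were below those in the mRNA genes in both sarkosyl series and in sarkosyl-free replicate 1, and above them in sarkosyl-free replicate 2. The class medians were 1.09 for rRNA and 1.37 for mRNA in sarkosyl replicate 1, and 1.11 and 1.14 in replicate 2. Without sarkosyl they were 2.43 and 2.54 in replicate 1, and 0.461 and 0.281 in replicate 2. The log2 difference, rRNA minus mRNA, was -0.32, -0.05, -0.06 and 0.72, with a mean of 0.07 and an exact sign-flip p of 1, and without sarkosyl-free replicate 2 the mean was -0.14.

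MT-RNR1 and MT-RNR2 differed more from each other without sarkosyl than with it. MT-RNR1 had medians of 1.23 and 1.13 with sarkosyl, from 40 and 44 sites, and of 4.52 and 0.646 in its absence, from 33 and 32 sites. MT-RNR2 had medians of 1.06 and 1.10 with sarkosyl, from 76 and 68 sites, and of 1.56 and 0.334 in its absence, from 52 and 58 sites. MT-RNR1 was therefore above MT-RNR2 in each of the 4 series, a description chosen after the values were seen. Relative to all plus-strand sites, MT-RNR1 lay 0.88 and 0.98 higher on the log2 scale in the sarkosyl-free series and -0.08 and -0.01 in the sarkosyl series.

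The longest times of both sarkosyl series lay inside MT-RNR2. Position 2405 had 21.7 in sarkosyl replicate 1 and 3.50 in replicate 2, against 0.840 and 0.180 without sarkosyl. Position 2240 had 14.1 and 5.26 with sarkosyl, against 0.746 and 0.392 in its absence. At both positions each sarkosyl value was above each sarkosyl-free value, which was also the case at 29.2% of all 2967 sites that the 4 series share and at 27 of the 92 plus-strand ones (29.3%).

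The 12 protein-coding genes on this strand encode subunits of the respiratory chain and of ATP synthase. The 6 genes of complex I, the NADH dehydrogenase, had medians of 1.32 and 1.12 with sarkosyl, from 208 and 214 sites. Without sarkosyl their medians were 2.50 and 0.252, from 145 and 117 sites. The 3 genes of complex IV, cytochrome c oxidase, had 1.37 and 1.17 with sarkosyl and 2.50 and 0.294 in its absence, from 65 to 104 sites a series. The complex III gene MT-CYB, for cytochrome b, had 1.39 and 1.17 with sarkosyl and 2.54 and 0.632 in its absence. The ATP synthase genes MT-ATP6 and MT-ATP8 had 1.54 and 1.17 with sarkosyl and 2.77 and 0.236 in its absence, from 17 to 29 sites. In sarkosyl replicate 2 these 4 groups span 1.12 to 1.17, and their order in the other series differs from series to series.

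Of the 28 genes, 12 had at least 5 sites in each series and are described by their medians. These are the 2 rRNA genes and 10 protein-coding genes. Among the latter, MT-CO2, a cytochrome c oxidase subunit, had the highest median of sarkosyl replicate 1, 1.97. Its medians of 1.15, 2.75 and 0.267 in the other series were near those of the other mRNAs. MT-ND2 had 1.61 and 1.10 with sarkosyl and 3.18 and 0.249 in its absence. MT-ND1 had 1.09 in both sarkosyl series and 2.30 and 0.313 without sarkosyl, below the plus-strand median in all 4 series.

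The remaining complex I genes were spread around the series medians. MT-ND5, the longest of these genes, had 1.20 and 1.16 with sarkosyl and 2.44 and 0.225 in its absence. MT-ND4 had 1.35 and 1.17 with sarkosyl and 2.56 and 0.256 in its absence. MT-ND4L overlaps MT-ND4 by a few bases, and it had 1.29 and 0.976 with sarkosyl and 2.04 and 0.510 in its absence, from 8 to 11 sites. MT-ND3 had 12, 15, 6 and 4 sites and is given by its counts alone.

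Among the other protein-coding genes, MT-CO1 had 1.37 and 1.17 with sarkosyl and 2.33 and 0.324 in its absence. MT-CO3 had 1.34 and 1.17 with sarkosyl and 2.01 and 0.272 in its absence. MT-ATP6 had 1.57 and 1.17 with sarkosyl and 3.06 and 0.244 in its absence. MT-ATP8, which overlaps the start of MT-ATP6, held 6, 4, 4 and 5 sites. MT-CYB was higher than the plus-strand median in 4 of 4 series, with log2 differences of 0.09, 0.04, 0.05 and 0.96.

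**Figure D2:**
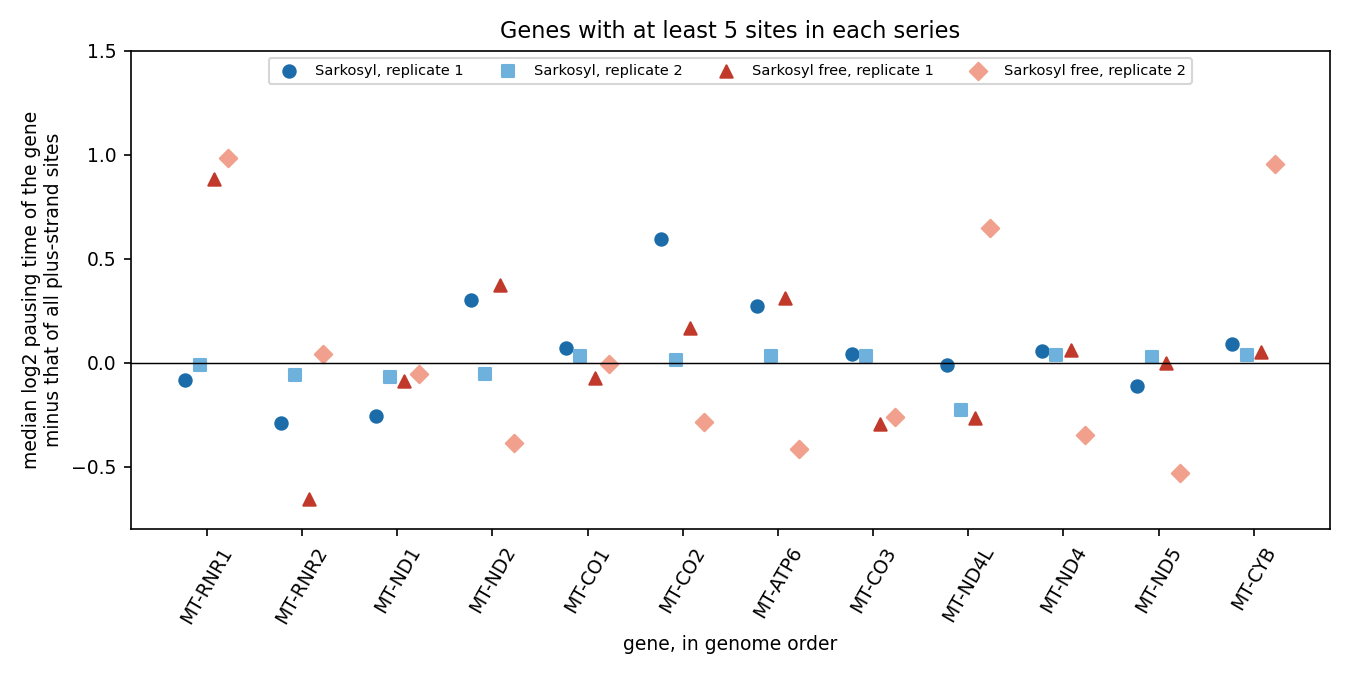
Each point is the median log2 pausing time of 1 gene in 1 series minus the median of all plus-strand sites of that series, for the 12 genes with at least 5 sites in each series, in genome order. MT-RNR1 stands 0.88 and 0.98 above 0 in the sarkosyl-free series, and the sarkosyl replicate 2 points lie close to 0.

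Over all sites in the 14 tRNA genes, sarkosyl-free replicate 2 stood apart from the other 3 series. The median pausing time was 1.22 and 1.16 with sarkosyl, from 35 and 34 sites, and 2.70 and 27.8 in its absence, from 29 and 27 sites. The log2 difference, tRNA minus mRNA, was -0.16 and 0.03 with sarkosyl and 0.08 and 6.63 in its absence. Its mean was 1.65, with an exact sign-flip p of 0.625. Without sarkosyl-free replicate 2 the mean was -0.01, so the size of the difference rests on that series.

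Most of the long times in the tRNA genes sat at or next to their last base. Of the tRNA-gene sites above 10, 9 of 9 in sarkosyl-free replicate 1 and 12 of 16 in replicate 2 lay within 1 base of it. The remaining 4 lay on first bases of tRNA genes, with 111 in MT-TG, 34.5 in MT-TR, 31.3 in MT-TH and 14.5 in MT-TV. Without sarkosyl a site lay exactly on the last base of 9 of 14 tRNA genes in replicate 1 and of 11 of 14 in replicate 2. Within 1 base of the end the counts were 11 and 12. With sarkosyl no site lay on a last base, and 1 site in each series lay within 1 base of one. The pattern was noticed in these tables, so it is described with no test. The sources used here do not say whether positions count from 0 or from 1, and they are read as counted from 1. Counted from 0, the same sites would lie 1 base further on, on the first base past the tRNA gene.

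The times at these ends were long against the rest of the strand in both sarkosyl-free series. Sites on a last base had a median of 27.0 and a range of 10 to 40 in replicate 1, and a median of 111 and a range of 17.5 to 250 in replicate 2. All plus-strand sites farther than 1 base from a tRNA end had medians of 2.38 and 0.312. Other sites inside any of the 14 tRNA genes, with or without a site at the end, had medians of 1.68 and 0.384. Of the 20 longest times of a series, 8 and 10 lay within 1 base of a tRNA 3′ end without sarkosyl, and 0 and 0 with it.

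MT-TD, the aspartate tRNA gene, held the longest time of both sarkosyl-free series. Its single listed site, position 7584, is 1 base before the last base of the gene and had 200 in replicate 1 and 1000 in replicate 2. The sarkosyl series listed no site in this gene. The deposited rates are rounded to 3 decimals, and the rate behind the time of 1000 is 0.001, the smallest rate above 0 that such a table can show. Its quartiles are listed as 0 and 0.001 in replicate 2 and as 0.004 and 0.008 in replicate 1.

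Of the other tRNA genes, MT-TW for tryptophan had 22.2 and 250 at its last base, and MT-TF for phenylalanine had 11.8 and 200. MT-TL2, a leucine tRNA gene, had 35.7 and 167, and MT-TK for lysine had 40 and 111. MT-TT for threonine had 27.0 and 83.3, MT-TG for glycine had 28.6 and 66.7, and MT-TR for arginine had 28.6 and 55.6. The lowest values were those of MT-TI for isoleucine, 10.4 and 27.8, and of MT-TH for histidine, 10 and 17.5. In each of these 9 genes replicate 2 gave the longer time, although the median of all plus-strand sites was lower in replicate 2.

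Some tRNA genes differed between the replicates or lacked an end site. MT-TV for valine had 167 at its last base in replicate 2 and no site within 1 base in replicate 1. MT-TL1, the other leucine tRNA gene, had 167 at its last base in replicate 2 and 25.6 at the next base in replicate 1. MT-TM and MT-TS2, for methionine and serine, had no site within 1 base of the end in either series.

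**Figure D3:**
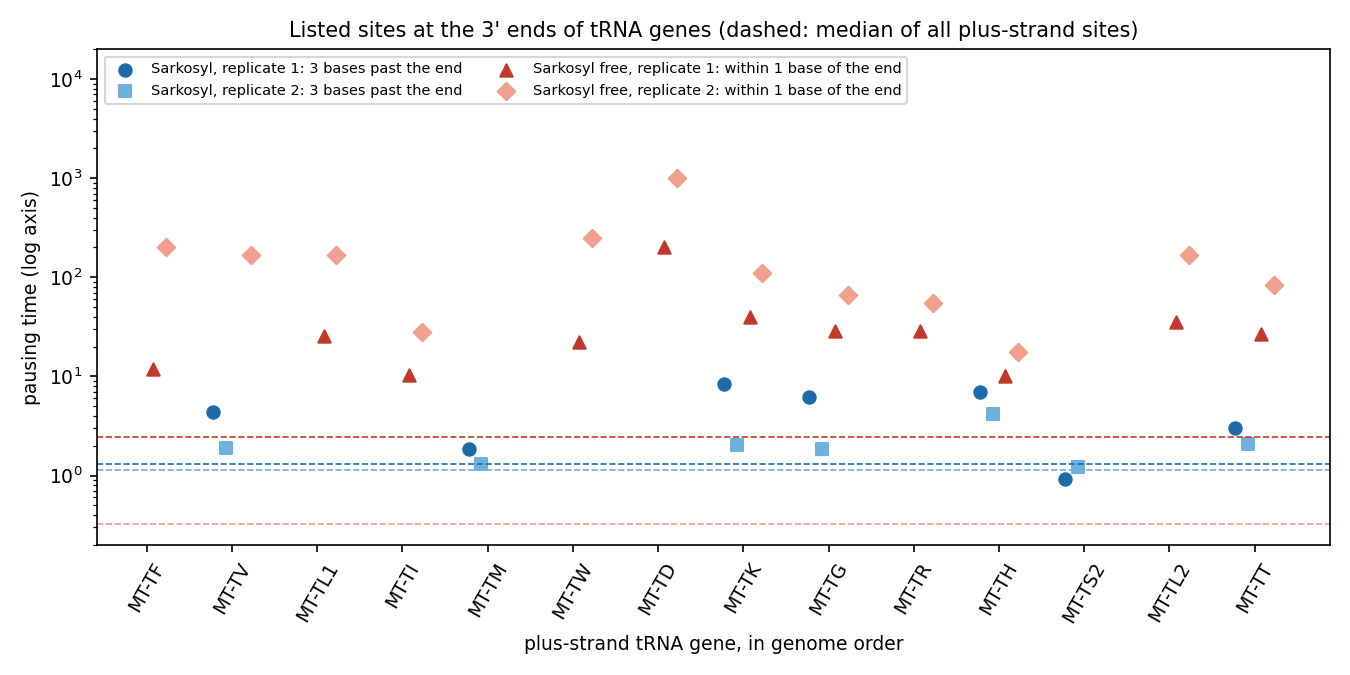
For each plus-strand tRNA gene in genome order, triangles and diamonds give the pausing time (log axis) within 1 base of the gene's last base without sarkosyl, and circles and squares give it 3 bases past the end with sarkosyl. Dashed lines are the medians of all plus-strand sites, and the sarkosyl-free points, from 10 to 1000, all lie above them.

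With sarkosyl, the commonest listed position near these ends was downstream of them. A site lay exactly 3 bases past the last base of 7 of 14 tRNA genes in each sarkosyl series. Within the 10 bases upstream of an end these series listed 5 and 4 sites, at scattered distances. The position 3 bases past the end held 3 and 2 sites without sarkosyl. Since sites of a table were never closer than 4 bases, a table could not list both the last base and the position 3 bases past it. The times there were moderate. The median was 4.39 in sarkosyl replicate 1, with a range of 0.917 to 8.47, and 1.90 in replicate 2, with a range of 1.22 to 4.15. Without sarkosyl the sites at this distance had medians of 1.07 and 0.541.

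The 3-base position past MT-TK, which is the second base of MT-ATP8, had 8.47 and 2.05 with sarkosyl. The one past MT-TH had 6.90 and 4.15, and the one past MT-TG had 6.21 and 1.85. The positions past MT-TV had 4.39 and 1.90, past MT-TT 3.04 and 2.09, and past MT-TM 1.85 and 1.32. The lowest was that past MT-TS2, with 0.917 and 1.22. All but that past MT-TS2 in replicate 1 were above their series' plus-strand median. The 1 site within 1 base of an end with sarkosyl was in MT-TH, with 2.37 and 1.08.

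**Figure D4:**
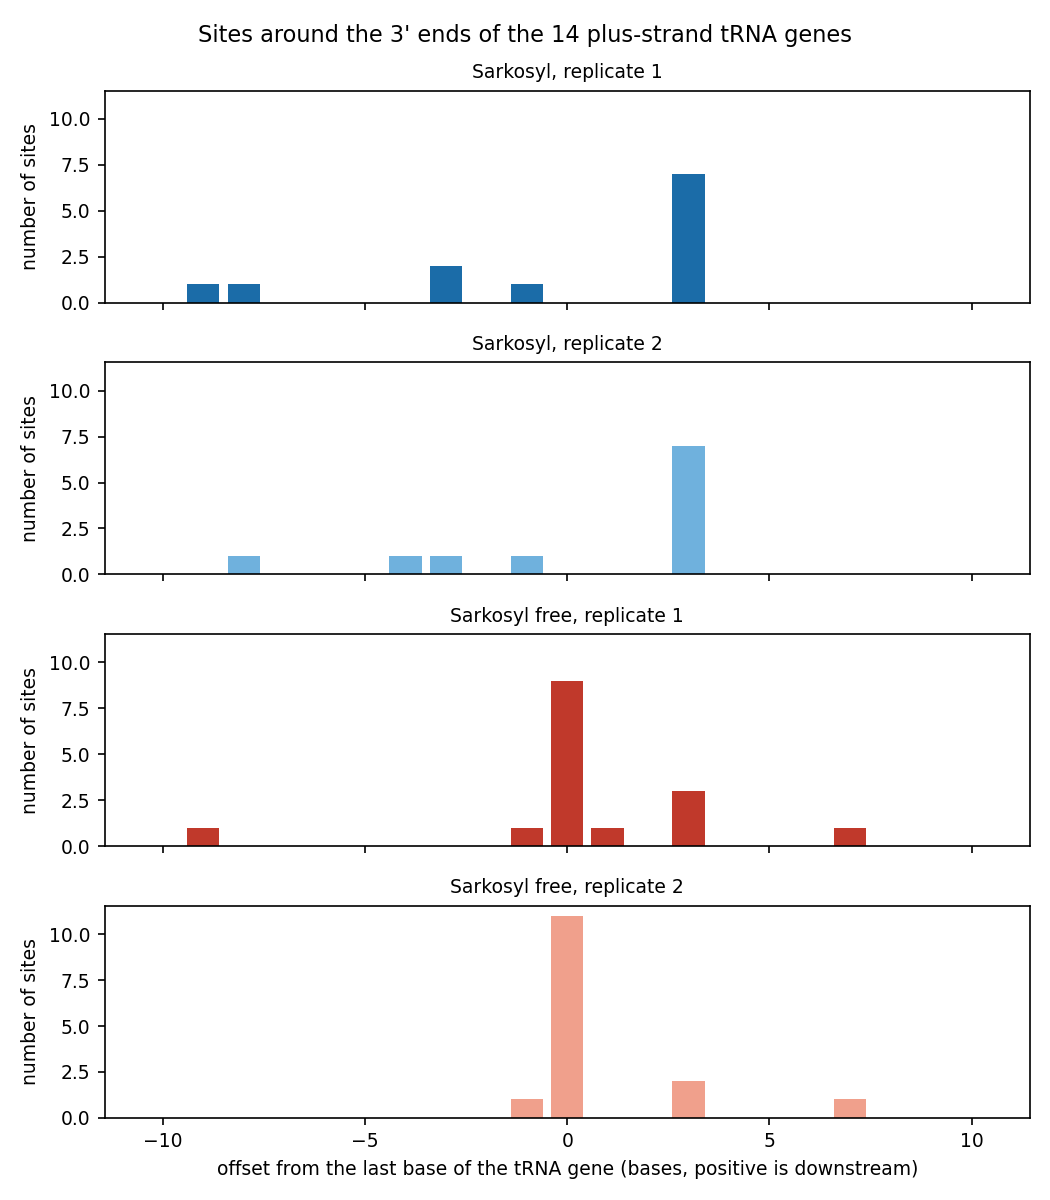
Bars count plus-strand sites by their distance in bases from the last base of the 14 tRNA genes, with positive distances downstream and 1 panel per series. The sarkosyl series peak at 3 bases past the end with 7 sites each, and the sarkosyl-free series peak at the last base with 9 and 11 sites.

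The upstream ends of the tRNA genes showed a weaker pattern. The base before a tRNA gene is the last base of the RNA upstream of it. Leaving out starts that abut another tRNA's end, 12 such bases remain. Listed sites fell on 1 and 2 of them with sarkosyl and on 3 and 3 in its absence. The times were 1.32 to 1.41 with sarkosyl across both series, 0.894 to 15.4 in sarkosyl-free replicate 1 and 7.35 to 45.5 in replicate 2. Within 1 base of these positions, sarkosyl-free replicate 2 listed 8 sites, the longest of which, 111, was on the first base of MT-TG.

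Taking starts and ends of genes on either strand, 13 and 13 sites lay within 2 bases of one with sarkosyl, and 21 and 25 in its absence. Their median pausing times were 1.85 and 1.32 with sarkosyl, and 11.8 and 66.7 in its absence. Away from boundaries the medians were 1.29, 1.14, 2.40 and 0.296. In sarkosyl-free replicate 2, 15 of the 18 times above 50 lay within 2 bases of a boundary, and in replicate 1 this held for 1 of 2. Of times above 10, 12 of 46 and 22 of 35 lay there.

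The base at the listed site also differed between buffers. Bases were taken from the GENCODE 29 transcripts, which cover the genes, where C makes up 31.1% of plus-strand bases, A 31.0%, T 24.9% and G 13.0%. With sarkosyl, 83.3% and 83.8% of sites were on a C, over 564 and 562 sites. Without sarkosyl the share was 46.1% and 57.4%, over 414 and 357 sites. An A preceded the site in 55.8% and 56.3% of sites with sarkosyl and in 40.0% and 45.5% in its absence. The base after the site was a C in 45.6% and 42.1% with sarkosyl and in 62.5% and 48.4% in its absence.

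Sites listed with 1 buffer alone also differed in their base. Of positions listed in both sarkosyl series and neither other series, 87.7% of 292 were on a C and 1.03% on an A. Of those listed in both sarkosyl-free series and neither sarkosyl series, 26.0% of 104 were on a C and 33.7% on an A, and the next base was a C in 67.3% of 101. Among the positions listed in all 4 series 77.8% of 90 were on a C. With sarkosyl C was commonest at the listed base on both strands, with 59.9% and 57.3% on the minus strand. Without sarkosyl the share of C peaked at the next base on the minus strand, with 45.7% and 44.3%, and on the plus strand of replicate 1. At that base of the minus strand T had 44.7% in sarkosyl-free replicate 2, slightly above C.

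Within a series the base went with the time without sarkosyl. In sarkosyl-free replicate 1 the median pausing time was 4.20 at an A and 1.93 at a C, from 83 and 191 sites. In replicate 2 it was 0.589 and 0.286, from 51 and 205 sites. With sarkosyl the medians were 1.46 at an A and 1.34 at a C in replicate 1, and 1.12 and 1.15 in replicate 2, with only 11 and 15 sites on an A. Most of the listed tRNA 3′ ends carry an A, so these counts share sites.

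Replicates of a buffer listed many of the same positions. The sarkosyl series shared 462 sites, 79.1% of replicate 1 and 80.1% of replicate 2. The sarkosyl-free series shared 224, 52.5% and 60.9% of each. Pairs across buffers shared 124 to 166. Over the shared sites Spearman's rho was 0.626 with sarkosyl and 0.340 in its absence, and it ran from -0.162 to 0.174 across buffers, as a description over sites of shared tables. A sarkosyl-free site lay exactly 1 base upstream of a sarkosyl site in 33 to 53 cases per pair of series. It lay 1 base downstream in 14 to 19 cases and 3 bases upstream in 20 to 25. Replicates of a buffer, which share more positions, were offset by 1 base upstream at 7 or 8 sites.

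**Figure D5:**
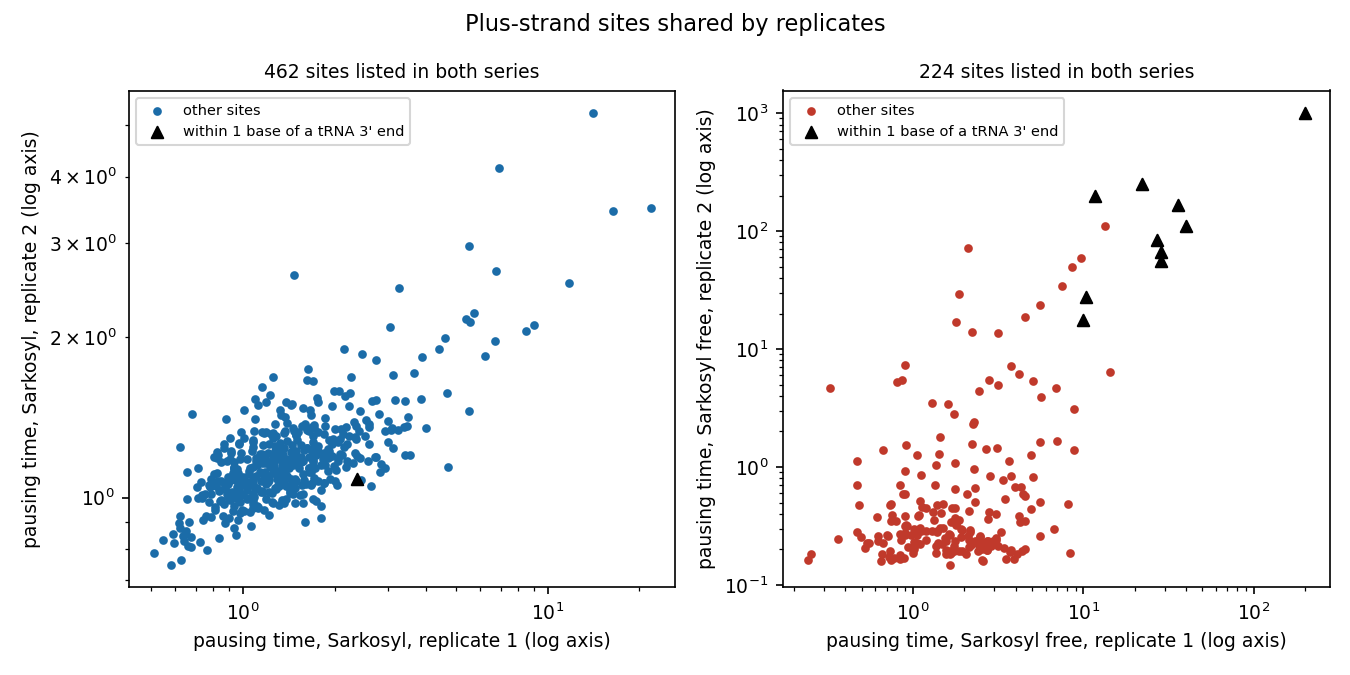
Each point is a plus-strand site listed in both replicates of a buffer, 462 with sarkosyl and 224 in its absence, with pausing time in replicate 1 on the x axis and replicate 2 on the y axis, both log axes whose ranges differ between panels. Triangles are sites within 1 base of a tRNA 3′ end, which lie at the upper right without sarkosyl.

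Single sites were compared between buffers with limma, after centring each series on its median over the 2967 sites of the genome that all 4 series list. Of these, 92 are on the mitochondrial plus strand, and none of the sites on a tRNA's last base is among them, because the sarkosyl series do not list those. At a Benjamini-Hochberg adjusted p under 0.05, limma called 0 of the 92 sites, against 0% of all tested sites. At an unadjusted p under 0.05, 6 of the 92 (6.52%) were longer with sarkosyl, against 12.0% of all tested sites, and 1 (1.09%) was shorter, against 11.2%. The median log2 difference, sarkosyl minus sarkosyl free, was 0.93 over the 92 sites and 0.22 over all sites, and it was above 0 at 76 of the 92 (82.6%), against 53.9% of all sites. The low plus-strand level of sarkosyl-free replicate 2 enters this median. The limma count depends on a single series. It changed, over the 92 sites and over all tested sites, when either sarkosyl-free series was left out. Such a fit holds a single series of that buffer.

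The 3 members with the smallest unadjusted p-values were all longer with sarkosyl. Position 2240 in MT-RNR2 differed by 4.13 ± 0.88 (limma's SE) on the log2 scale, with a limma adjusted p of 0.155. Position 9198, near the end of MT-ATP6, had 3.26 and 2.47 with sarkosyl and 0.536 and 0.226 in its absence. It differed by 3.16 ± 0.82 (limma's SE), with a limma adjusted p of 0.162. Position 2405 in MT-RNR2 differed by 4.62 ± 1.27 (limma's SE), with a limma adjusted p of 0.171. None of them passed the adjusted threshold.

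The ranks of the 9 sites shown above were taken over all 4 series and are a description. The longest by rank, MT-CYB position 14928, had 2.99 and 1.27 with sarkosyl and 6.99 and 1.65 in its absence. MT-CO2 position 7948 had 3.11 and 1.69 with sarkosyl and 2.82 and 0.836 in its absence. MT-RNR1 position 1274 had 6.76 and 2.66 with sarkosyl and 1.09 and 0.511 in its absence. This site was near the top of both sarkosyl series, at percentiles 98.8 and 98.1, and at percentile 21.3 of sarkosyl-free replicate 1.

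The others of the long set were MT-ND5 position 13122, with 4.61, 2.00, 2.16 and 0.281, and MT-CO1 position 6169, with 3.55, 1.20, 4.22 and 0.343, in the order of series used above. Position 13122 was at percentiles 44.7 and 43.5 of the sarkosyl-free series, so its rank came from the sarkosyl series. The shortest by rank was MT-ND2 position 4616, with 0.930, 1.10, 0.649 and 0.161. MT-ND1 position 3777 had 0.789, 0.920, 1.40 and 0.227, and MT-ND1 position 3757 had 0.951, 0.997, 0.933 and 0.210. MT-CYB position 15190 had 0.729, 1.07, 0.662 and 0.227. The shortest time of each series lay at position 8807 in MT-ATP6 with 0.489, at position 4383 opposite a minus-strand gene with 0.607, at position 15979 opposite a minus-strand gene with 0.204, and at position 10386 in MT-ND3 with 0.133.

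Outside the plus-strand genes the sites were few. The control region held 18 and 13 sites with sarkosyl and 10 and 6 in its absence, with median times of 1.24 and 1.24, and of 1.95 and 7.88. The listed sites between the start of numbering and MT-TF lay between positions 50 and 208 in all series. Plus-strand positions opposite minus-strand genes held 41, 37, 26 and 19 sites, with medians of 1.44, 1.22, 1.55 and 0.256.

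Some of these genes have near-identical nuclear copies, for which the handling of shared reads is not given in the sources used here. MTATP6P1 on chromosome 1 is 98.5% identical to MT-ATP6 in a comparison of the GENCODE 29 transcripts. It held 28, 26, 24 and 16 sites, of which 7, 11, 11 and 6 matched a listed MT-ATP6 position. MTND2P28, 98.4% identical to MT-ND2, held 29, 34, 28 and 19 sites, of which 17, 18, 5 and 6 matched. The base collinear with the MT-TD site lies 2 bases before MTCO2P12, at chromosome 1 position 632755, and had 250 in sarkosyl-free replicate 1 and was listed in no other series. Reads of a gene and its copy cannot be told apart where their bases agree, so these values are uncertain.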

How the data were processed

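The authors deposited 4 tables, 1 per buffer and replicate, with a pausing time per position and strand; it equals the reciprocal of the deposited median rate, which is rounded to 3 decimals. Per the submitters' processing notes, cutadapt 1.14, HISAT2 2.1.0, SAMtools, bedtools and hg38 were used; the model, its prior and the site rule are not given in the sources used here. The 8 columns of SD and Monte Carlo error were not used. Sites were assigned to GENCODE 29 genes and the log2 of the pausing time was analysed in R 4.3.3 with limma 3.58.1 and in Python 3.11.15 with pandas 2.3.3, numpy 2.4.6 and matplotlib 3.10.9. Class comparisons took the within-series difference of medians and a two-sided exact sign-flip test over series; scripts were tested on simulated data. Genes with at least 5 sites in each series, the 5 highest and 5 lowest ranked shared sites, each series' extremes and the 3 smallest limma p-values were named; 1 of the lowest ranked sites is not reported here. Members, lists and rules were chosen with earlier results of these data known. Alternatives covered the mean, certainty and spacing filters, the mean rate, a shift by 1 base, gene boundaries, shared sites, scaling, a replicate block and leaving out each series. Leaving out sites within 1 base of tRNA 3′ ends was added after seeing the data.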

Additional observations from a re-analysis of the deposited data

Results flagged for a closer look

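The difference between the far and the near part of the plus strand had opposite signs in the 2 buffers. In sarkosyl-free replicate 1 the sign varied with the processing. Far minus near, the log2 difference of medians came to 0.23 and 0.06 for sarkosyl and to -0.03 and -0.41 for sarkosyl free, so the buffers' means differed by 0.36. In sarkosyl-free replicate 1 the value was 0.063 with means, 0.028 without sites at tRNA 3′ ends and 0.26 over sites listed in both series of the buffer. In the same series it was -0.12 with the more certain sites alone and -0.086 without sites within 5 bp of a gene boundary. With 1 site per 10 bp it was -0.083, and with the mean rate or a shift by 1 base it was -0.032. This difference between buffers was not tested. Within the mRNA genes alone, Spearman's rho with distance was 0.026 and 0.157 with sarkosyl and 0.011 and -0.014 in its absence, as a description over 372, 379, 274 and 221 sites.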

How the results depend on the processing

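Of 89 alternatives over 9 results, 68 kept direction and side of the threshold, 13 reversed and 8 moved a count. With the mean in place of the median, the buffer difference was -0.011 and far minus near 0.0084. With the more certain sites alone, the buffer difference was -0.010 and plus minus minus strand -1.04. The tRNA minus mRNA difference was -0.24 without sites within 5 bp of a gene boundary and -0.072 without sites within 1 bp of a tRNA 3′ end, an alternative chosen after seeing the data. With positions shifted by 1 base it was 0.76 (-0.60 in sarkosyl-free replicate 1), against 1.65. With sites listed in both series of a buffer, rRNA minus mRNA was -0.18 and far minus near 0.070. Leaving out 1 series at a time gave -1.01 to 1.91 for the buffer difference, -0.035 to 0.34 for plus minus minus strand, -0.14 to 0.20 for rRNA minus mRNA, -0.015 to 2.25 for tRNA minus mRNA and -0.13 to 0.085 for far minus near. It gave 0 to 1597 limma calls in all and 0 to 68 among members; the lone series of a buffer was then assumed to vary like the others. Quantile normalization gave 158 calls in all and 3 among members. The replicate numbers share only a number: the correlation of replicate differences between buffers was 0.01 over the shared sites and 0.16 over the members, with 2 pairs. The limma fit with a replicate block gave 161 calls, 2 of them members, and the buffer difference paired by replicate number stayed 0.45. The cause of these changes was not tested. The unknown depth limits how firmly any single site can be read.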

Other observations

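The minus strand, which carries 8 tRNA genes, listed fewer sites at tRNA 3′ ends than the plus strand. With sarkosyl 0 and 0 sites lay on a last base there. Without sarkosyl 1 and 2 did, with times of 16.4 in replicate 1 and 15.6 and 66.7 in replicate 2, against minus-strand medians of 1.96 and 0.470. Further times above 50 at gene boundaries in sarkosyl-free replicate 2 included 250, 111 and 100 at plus-strand positions 7515, 14745 and 4400. Position 7515 is 1 base from the start of the minus-strand gene MT-TS1 and 3 bases before MT-TD. Position 14745 is 2 bases before MT-CYB. Position 4400 is at the start of the minus-strand gene MT-TQ and 2 bases before MT-TM. The first and last of these positions were not listed in sarkosyl-free replicate 1, and position 14745 had 13.3 there.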
